A study of Mus musculus with 4 samples.

Results

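The genes described are 9 genes of the B lymphocyte lineage, from precursor to mature cell: Vpreb1, Vpreb3, Igll1, Rag1, Pax5, Ebf1, Cd79a, Cd79b and Ms4a1. They were taken by name from the arrays, where 12 probes carry their symbols, of 39429 probes and 30419 gene names with a value on all 4 arrays. Cd79a, Rag1 and Pax5 have 2 probes each, and the others have 1.

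RNA from 4 mouse samples was hybridised to Agilent whole-genome arrays read in a single colour (Cy3), 1 array for each sample. The first sample is ligament-like tissue that formed from C3H mesenchymal stem cells after transfection with a mouse gene called only A in the labels, carried by pCAGGS, a vector for strong and broad expression; it is called the transfected tissue. The next is ligament of C57BL/6J mice carrying A as a transgene from the same vector, injected into fertilized eggs; it is called transgenic ligament. The last samples are ligament of wild type C57BL/6J mice and the untransfected C3H mesenchymal stem cells, which were derived from embryos and came from a cell bank. Age, the number of mice, any pooling and the number of transgenic founder lines are not given in the sources used here, and A itself could not be looked up. Strain and origin differ together between the cell arrays and the ligament arrays, so their parts in those differences cannot be told apart. The design asks what A does to stem cells and to ligament.

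B lymphocytes arise in bone marrow. Precursors rearrange their immunoglobulin genes with the RAG recombinase and test the new heavy chain in a pre-B receptor, in which VpreB and lambda5 proteins stand in for a light chain. The transcription factors Ebf1 and Pax5 set and hold the B cell programme, and the signalling pair Cd79a and Cd79b carries the signal of the receptor from precursor to mature cell. Ligament is a fibrous tissue of fibroblasts and collagen and is not a site where B cells are made, whereas blood and the marrow of adjoining bone hold B cells.

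Levels are log2 processed signal minus the 75th percentile of the array, so 0 is the 75th percentile. That percentile was 2260 signal units in the transfected tissue, 303 in transgenic ligament, 286 in the wild type ligament and 1169 in stem cells. Between 49.0% and 56.3% of spots were well above background by the mark of the scanner software, and the lowest such level was -5.71 in the transfected tissue, -3.90 in transgenic ligament, -3.41 in the wild type ligament and -5.79 in stem cells. A gene was called higher or lower from 2-fold. A level without that mark is only a ceiling, so a fold against it is given as at least that size. All 4 arrays bear the same scan time. With 1 array for each group there is no spread between replicates and no test. The errors given are those of the scanner software for a spot, which leave out the spread between animals and cultures.

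Of the 6 ligament and tendon markers examined, 6 were well above background in transgenic ligament and 5 in wild type ligament, where Mkx, a tendon transcription factor, was not. The ligament arrays also carried strong signals of blood cells. All 12 neutrophil and myeloid precursor genes were well above background on both ligament arrays, with S100a9, a calcium-binding protein of neutrophils, the brightest at 8.34 in transgenic ligament and 9.38 in wild type ligament. Bone matrix genes were present too, with Bglap (osteocalcin) at 4.53 and 2.46 in the same order.

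**Figure D1:**
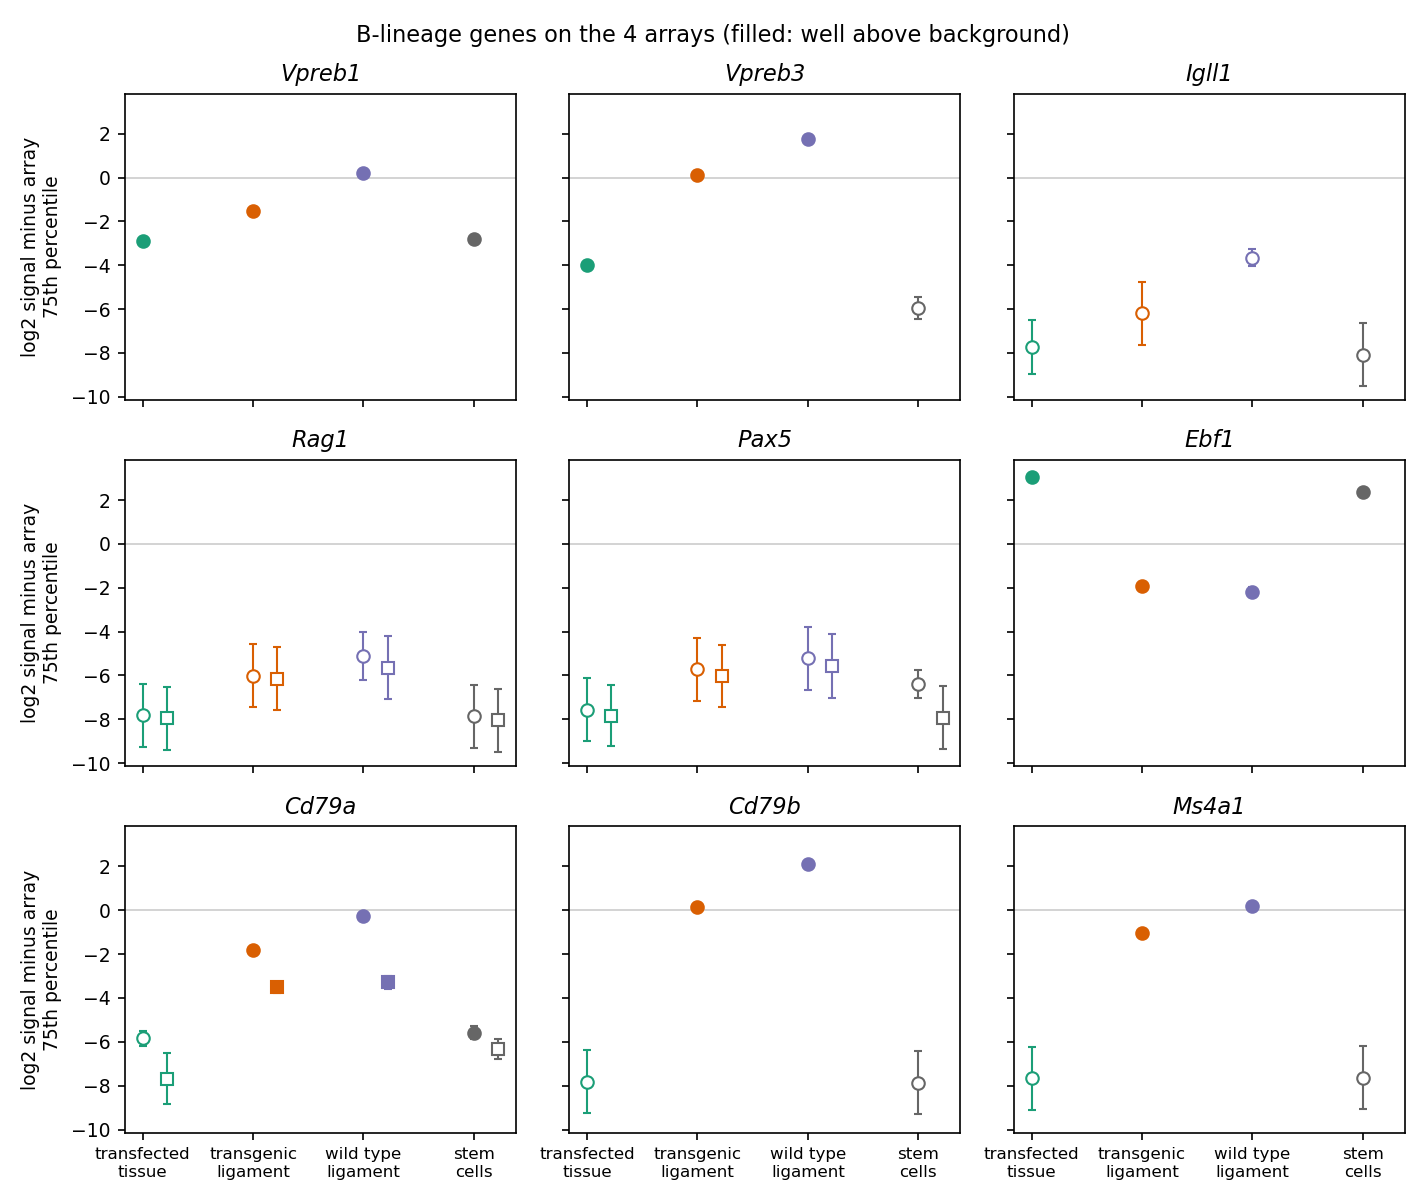
Level of each probe of the 9 genes on the 4 arrays (log2 signal minus the 75th percentile of the array; 1 array for each group). Circles are the brighter or sole probe, squares the dimmer probe of genes with 2, filled symbols are well above background, and bars are the scanner software's error, smaller than the symbol where not visible; Vpreb1, Vpreb3, Cd79a, Cd79b and Ms4a1 are highest in wild type ligament, and Ebf1 is highest in the transfected tissue.

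The genes of the precursor stage did not appear as a block. Vpreb1, a chain of the surrogate light chain, was measured on every array, at -2.91 in the transfected tissue, -1.51 in transgenic ligament, 0.22 in the wild type ligament and -2.80 in stem cells. Vpreb3, a chaperone-like relative that binds immunoglobulin chains inside the cell, stood at -3.98 in the transfected tissue, 0.14 in transgenic ligament, 1.78 in the wild type ligament and -5.96 in stem cells, where it was not well above background. For both genes wild type ligament was highest and transgenic ligament next. The transfected tissue and stem cells differed in Vpreb1 by less than the error of their spots (-0.11, error 0.21).

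Igll1 encodes lambda5, the partner of Vpreb1 in the surrogate light chain. It was not well above background on any array, with a signal of 10.6 units in the transfected tissue, 4.18 in transgenic ligament, 22.8 in the wild type ligament and 4.34 in stem cells. The value in wild type ligament carried an error of 6.02 units and was the largest of the 4. Rag1, a subunit of the recombinase, was not well above background with either probe on any array, at 4.26 to 9.98 units. The precursor genes Vpreb1 and Vpreb3 were thus measured in ligament where Igll1 and Rag1 were not detectable at this signal, which does not show that their RNA was absent.

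Positions of the probes are those of the files, on mm9. The Vpreb1 probe lies at chr16:16868559-16868618 on the minus strand and the Igll1 probe at chr16:16861104-16861163 on the minus strand, so these probes lie close together. The Vpreb3 probe lies at chr10:75412326-75412385 on the plus strand. The Rag1 probes lie at chr2:101481051-101481110 and chr2:101478813-101478872 on the minus strand. The annotation of the files gives no exon or intron for them.

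The 250 bases before the start of Vpreb3 are shown because they hold an octamer, the recognition letters of the Oct factors and an old landmark of immunoglobulin promoters. They come from RefSeq on GRCm38.p6, at chr10:75948050-75948299, plus strand, with the octamer in capitals.
Vpreb3 upstream: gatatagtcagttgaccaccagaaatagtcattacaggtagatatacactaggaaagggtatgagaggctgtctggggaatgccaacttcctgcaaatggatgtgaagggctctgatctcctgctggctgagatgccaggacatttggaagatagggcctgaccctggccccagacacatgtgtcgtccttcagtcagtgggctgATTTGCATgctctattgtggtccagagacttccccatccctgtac
The octamer ATGCAAAT was searched on both strands and here reads in the reverse direction, with its first printed base 45 bases before the start (position -45). It occurs in 1.60% of 32851 such windows over all genes (526 windows). Of the 7 genes with a window in the table (8 windows, since Ebf1 has 2), Vpreb3 alone holds it. The half-site pair CCCNNGGG, a reduced form of the letters that Ebf factors recognise, occurs in 11.8% of all windows (3882) and, of these genes, only in that of Igll1 at position -231. A match in letters is not a bound site.

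The transcription factors stood apart from each other. Pax5, which holds cells in the B lineage, was not well above background with either probe on any array, at 4.60 to 13.99 signal units. Its probes lie on chromosome 4, minus strand, at chr4:44658421-44658480 and over a span of 32555 bases at chr4:44550354-44582908. Ebf1, measured by a probe at chr11:44818438-44818497 on the plus strand, was well above background on every array. It stood at 3.05 in the transfected tissue, -1.92 in transgenic ligament, -2.19 in the wild type ligament and 2.38 in stem cells. Both cell arrays stood far above both ligaments, the opposite split to that of Cd79a and Cd79b, and the ligaments differed by less than the error of their spots.

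Ebf1 is also active outside the B lineage, in fat cell precursors and other mesenchymal cells, and belongs to a family of related factors. Its relative Ebf3 showed levels of 2.37 in the transfected tissue, -0.96 in transgenic ligament, -0.40 in the wild type ligament and 1.81 in stem cells. Ebf3 was thus higher on both cell arrays than on both ligament arrays, as Ebf1 was. More genes of its list, the adipocyte and Ebf family genes, went the other way. Of 10 genes, 5 were higher and 2 lower in wild type ligament than in stem cells. Of 9 with a value, 5 were lower and 2 higher in the transfected tissue than in wild type ligament.

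Cd79b, the beta chain of the receptor's signalling pair, had a signal of 9.96 units in the transfected tissue, 334 in transgenic ligament, 1246 in the wild type ligament and 5.03 in stem cells. Its levels were -7.83, 0.14, 2.12 and -7.86 in that order, and neither cell array was well above background. Its probe lies at chr11:106172780-106172839 on the minus strand.

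Cd79a, the alpha chain, has 2 probes, which gave different values. The brighter probe stood at -5.83 in the transfected tissue (not well above background), -1.80 in transgenic ligament, -0.24 in the wild type ligament and -5.58 in stem cells. The dimmer probe stood at -7.68 in the transfected tissue, -3.51 in transgenic ligament, -3.29 in the wild type ligament and -6.33 in stem cells, with only the ligaments well above background. Both probes put the ligaments above the cell arrays, but only the brighter one separates the ligaments from each other. The dimmer one stands close to the lowest well-above-background levels, -3.90 in transgenic ligament and -3.41 in wild type ligament. It could therefore not have shown a 2-fold fall between them.

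The sequences of these probes are shown because the Cd79a value turns on which one is read. The files place the dimmer probe on chromosome 7, where RefSeq has the gene, over a span of 258 bases at chr7:25684357-25684614 (mm9, plus strand). They place the brighter probe at chr12:53180558-53180617 (mm9, plus strand), on another chromosome than the gene, and probes were not realigned. In the last 30 of its 60 bases, capitals mark a polyadenylation signal (AATAAA) and, 13 bases after it, a closing run of 6 A.
Cd79a brighter probe, last 30 bases: gtgatAATAAAtccttcccaaagcAAAAAA
Cd79a dimmer probe, all 60 bases: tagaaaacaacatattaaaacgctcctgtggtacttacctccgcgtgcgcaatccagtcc
Of all 39429 probes, 481 (1.22%) end in 6 or more A. Whether the A run or another transcript contributes to the brighter signal was not tested.

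The upstream window of Cd79a is shown because it is the receptor gene with a window in the table and its E-boxes can be seen beside the octamer window above. E-boxes (CANNTG, both strands), the letters that basic helix-loop-helix factors such as Tcf3 recognise, are in capitals. The window is RefSeq GRCm38.p6, chr7:24897247-24897496, plus strand.
Cd79a upstream: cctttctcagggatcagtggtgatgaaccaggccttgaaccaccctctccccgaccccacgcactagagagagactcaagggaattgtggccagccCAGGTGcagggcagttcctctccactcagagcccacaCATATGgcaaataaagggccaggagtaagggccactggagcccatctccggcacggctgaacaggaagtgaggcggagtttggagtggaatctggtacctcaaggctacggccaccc
Its E-boxes begin at positions -154 and -117. The Vpreb3 window above holds 5 E-box matches, which are not in capitals there. E-boxes are common letters: they occur in 66.2% of all windows (21753 of 32851), in 7 of the 8 windows of these genes and in all 7 genes.

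Ms4a1 encodes CD20, a surface protein of mature B cells. It had a signal of 11.2 units in the transfected tissue, 147 in transgenic ligament, 332 in the wild type ligament and 5.90 in stem cells. Its levels were -7.65, -1.05, 0.21 and -7.63 in that order, and neither cell array was well above background. The probe lies at chr19:11325367-11325426 on the minus strand.

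In transgenic against wild type ligament, 5 of the 6 genes with a value were lower in transgenic ligament and none was higher. Over all 16945 genes compared, 6.80% were lower and 6.10% higher at 2-fold, and the median of the 6 genes was -1.60 against -0.00 over all genes. The genes were chosen by name and not drawn at random, so this is a description. Igll1, Rag1 and Pax5 gave no value because they were not well above background on either ligament array.

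Cd79b was 3.96-fold lower in transgenic ligament (-1.98 on the log2 scale, error 0.21). Vpreb1 was 3.31-fold lower (-1.73, error 0.22) and Vpreb3 3.12-fold lower (-1.64, error 0.21). Cd79b, Vpreb1 and Vpreb3 therefore moved by similar amounts. The longer list of precursor genes, with these 2 Vpreb genes included, had a median of -0.92. Ms4a1 was 2.39-fold lower (-1.26, error 0.21), though it did not reach 2-fold with normexp background correction (-0.96). Cd79a was 2.95-fold lower by its brighter probe (-1.56, error 0.22). The dimmer probe gave -0.23 (error 0.40), which is not past 2-fold, and the mean of both probes gave -0.89. In wild type ligament the dimmer probe stood too close to the lowest well-above-background level of transgenic ligament (-3.90) to show a 2-fold fall. Ebf1 differed by 0.27 (error 0.28), less than the error of its spots. In bulk tissue, fewer B cells and less RNA of these genes in each cell cannot be told apart.

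**Figure D2:**
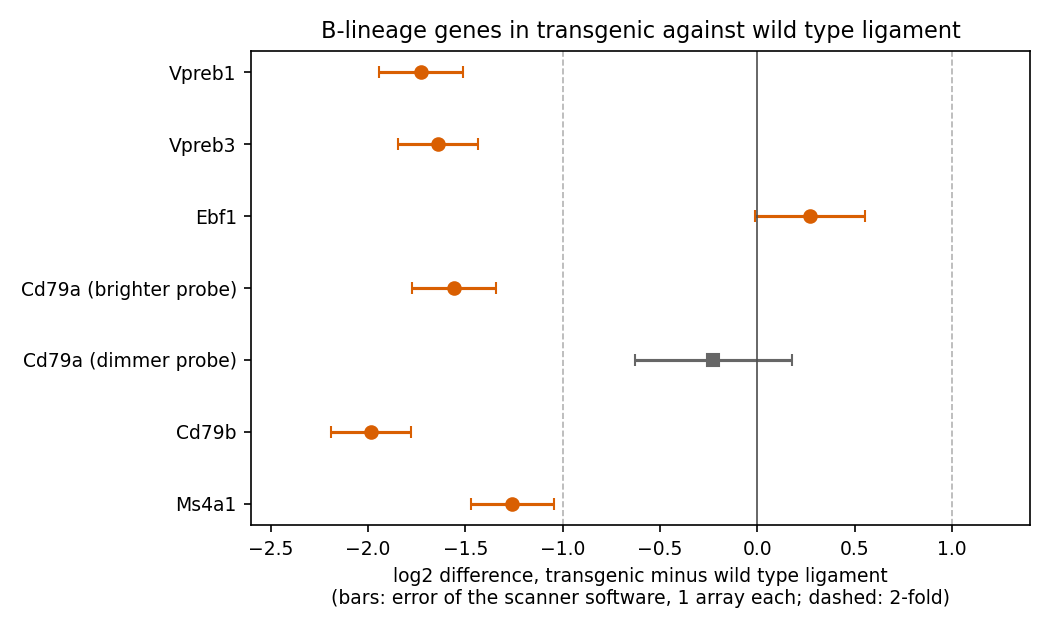
Log2 difference of transgenic minus wild type ligament for each probe well above background on both ligament arrays (1 array each; bars are the scanner software's error; dashed lines mark 2-fold). Cd79b, Vpreb1, Vpreb3, Ms4a1 and the brighter Cd79a probe lie below the lower line, while the dimmer Cd79a probe and Ebf1 lie within 2-fold.

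The rest of the lineage was read from 4 lists of precursor, transcription factor, receptor and surface genes, with the 9 genes left out. Of 52 other genes on the array, 37 gave a value, 14 of them lower in transgenic ligament, 1 higher and 19 within 2-fold, with a median of -0.87. The other 3 (Irf4, Bank1 and Erg) have bounds short of 2-fold and are undecided. Genes from each of the 4 lists were among those that fell, but the precursor list gave only Bst1, which has a bound. The transcription factor list gave only Spib and Irf8.

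Among precursor genes, Bst1, a stromal and progenitor surface enzyme, was at least 3.58-fold lower in transgenic ligament. Dntt, the polymerase that adds bases at immunoglobulin joints, stood at -2.15 in transgenic ligament and -1.21 in wild type ligament, and the progenitor factor Myb at -0.25 and 0.69 in the same order. These 2 differences, -0.94 each, and that of Lef1 (-0.90) did not pass 2-fold. Cd24a (-0.28) was within 2-fold too, while Cd93 went the other way by 0.67, also within 2-fold. Vpreb2, the near copy of Vpreb1, differed by -0.76, and the signals of such near copies cannot be separated with certainty.

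Among the transcription factors, Spib differed by -1.97 and Irf8 by -1.55, both lower in transgenic ligament; both genes also work in dendritic or myeloid cells. Ikzf1, needed by all lymphocytes, was higher by 1.89 with its brightest probe. Its other measured probe gave -0.62, so the direction for Ikzf1 rests on the probe. Tcf3 (-0.04), Bcl11a (-0.13), Foxo1 (-0.37), Bach2 (-0.67) and Pou2af1 (-0.87) stayed within 2-fold. Irf4 has only a bound (-0.93), since it was not well above background in transgenic ligament, so whether it passed 2-fold is undecided.

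In receptor signalling, the kinases Syk (-1.27) and Btk (-1.27) and the phospholipase Plcg2 (-1.05) fell. Syk and Plcg2 were well above background on the cell arrays too, and Syk stood at 0.35 in wild type ligament and 0.69 in stem cells. Btk stood at -2.57 in transgenic ligament and -1.31 in wild type ligament. The adaptor Blnk (-0.36) and Cd81 (0.63), a tetraspanin found on many cell types, were within 2-fold. The light chain gene Igkc was not well above background on either ligament array. Igkv4-72, of the same light chain family, was well above background on all 4 arrays. It stood at -0.26 in transgenic ligament and -1.05 in wild type ligament, a difference of 0.79, within 2-fold. Ighm was not found by name.

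Of the surface genes of mature B cells, Fcrla (-1.52), Cd72 (-1.49), Tnfrsf13c (-1.46), Fcmr (-1.46) and Ccr7 (-1.29) fell, and H2-Ob was lower by at least 1.16 on the log2 scale. Ccr7 guides lymphocytes of several kinds into lymph nodes, and Tnfrsf13c is the receptor for the survival factor BAFF. Cd22, an inhibitory receptor of B cells, went the other way by a small amount (0.35), and Cd37 (-0.40), Cd38 (-0.41) and Cd40 (-0.44) were within 2-fold. Cd22 was well above background on all 4 arrays, the cell arrays included.

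The plasma cell list did not follow the surface genes. Of 7 genes with a value, Derl3 (at least 2.20 on the log2 scale) and Sdc1 (1.81) were higher in transgenic ligament and Mzb1 (-1.19) was lower. Sdc1 is also made by epithelial and stromal cells, and Derl3 serves the disposal of misfolded secretory proteins. Jchain, the chain that joins secreted antibodies, differed by -0.37 and Xbp1 by 0.66.

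Most neutrophil, erythroid and pan-haematopoietic genes were also lower in transgenic ligament, while most T, NK and macrophage genes stayed within 2-fold. Of 12 neutrophil and myeloid precursor genes, 11 were lower in transgenic ligament, with a median of -2.36, Ltf (-2.97) and Retnlg (-2.91) lowest. The level of that list as a whole (log2 of its summed linear levels) was 0.48 in the transfected tissue, 8.76 in transgenic ligament, 10.25 in the wild type ligament and 0.55 in stem cells. Of 10 erythroid genes with a value, 7 were lower (median -1.24), the globin Hba-a1 by -2.26. Of 8 pan-haematopoietic genes, 6 were lower (median -1.54), with Coro1a at -2.03 and Cd52 at -1.83.

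The summed erythroid level was 7.20 in transgenic ligament and 9.19 in wild type ligament. The summed level of the pan-haematopoietic genes was 3.62 and 5.44 in the same order. That sum was 3.19 in the transfected tissue and 3.66 in stem cells, where the brightest gene alone stood at 3.64. Among 9 T and NK cell genes with a value, 3 were lower (Gzma -1.38, Lck -1.23, Cd2 -1.22) and none higher (median -0.53). In the macrophage list 1 of 8 genes was lower, Lyz2 (-2.70), which neutrophils also express, and the median was -0.11. The summed T and NK level was 3.17 in transgenic ligament and 3.54 in wild type ligament, and that of macrophages 3.74 and 4.33. Well above background in transgenic ligament were 9 of 11 erythroid, 7 of 8 pan-haematopoietic, 9 of 12 T and NK and 8 of 8 macrophage genes, against 10, 8, 7 and 8 in wild type ligament. The part of these cells in the B-lineage differences was not tested.

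Lists of connective tissue moved the other way. Of 6 ligament and tendon genes, 5 were higher in transgenic ligament (median 2.08), among them Comp (2.58), a matrix protein, Tnmd (2.46), a marker of mature tendon cells, and Fmod (2.15). Of 9 marrow stroma and bone genes with a value, 5 were higher (median 1.28), including Mepe (2.77), Phex (2.10), Bglap (2.07) and Dmp1 (1.52), genes of bone-forming cells and osteocytes. Kitl, a stromal factor that supports blood precursors, rose by 1.28, while Cxcl12 (-0.18) and Vcam1 (-0.23) were within 2-fold and Il7, the growth factor of B precursors, was not well above background on either ligament array. None of 10 adipocyte and Ebf family genes passed 2-fold (median -0.21). The part of the balance between ligament, bone and blood cells in the B-lineage differences was not tested.

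**Figure D3:**
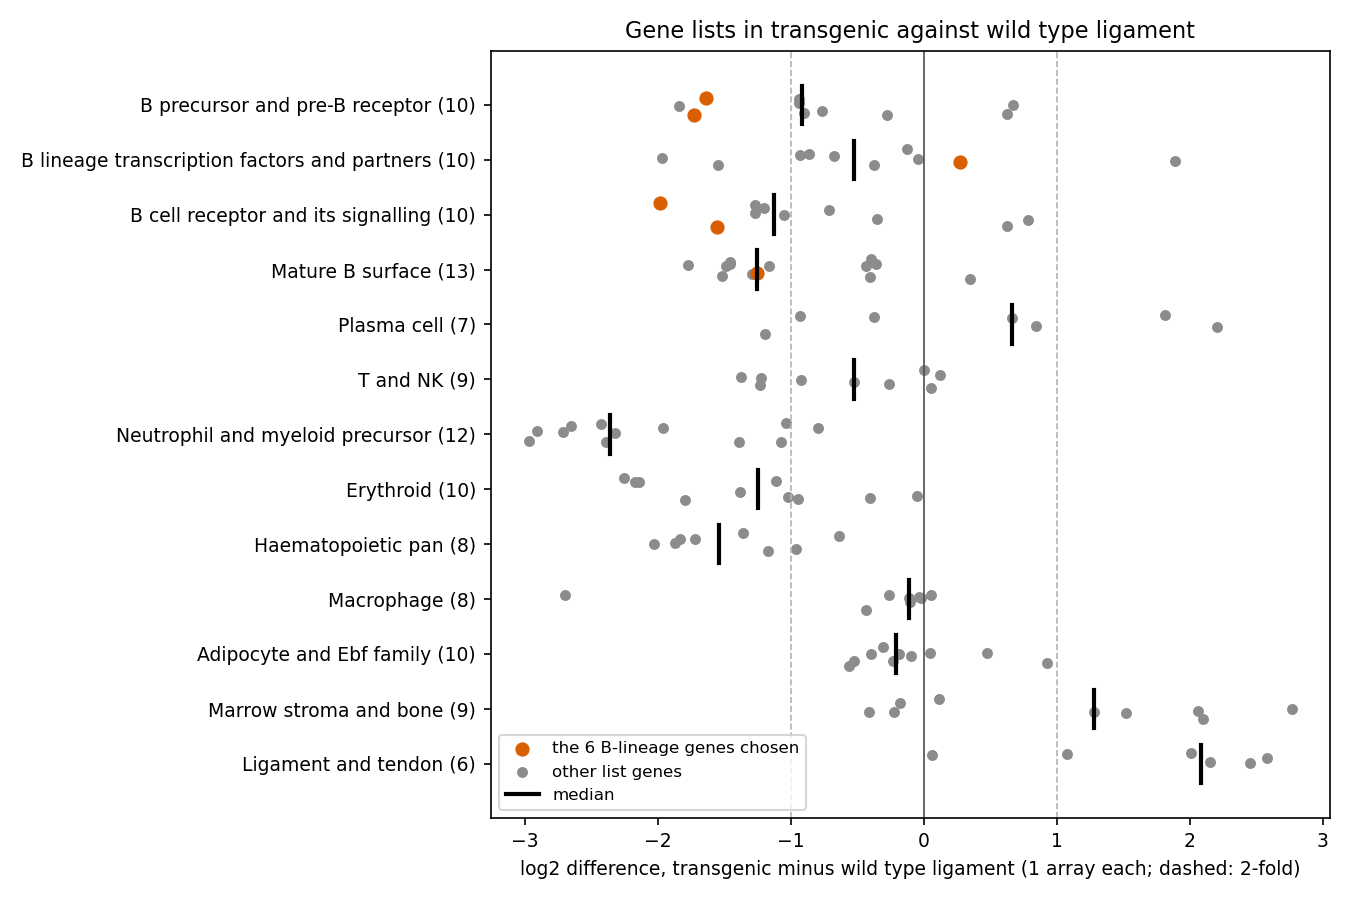
Log2 difference of transgenic minus wild type ligament for the genes of 13 lists with a value (number in brackets; 1 array each); orange points are the 6 B-lineage genes with a value, grey points the other list genes, black bars the median of each list, dashed lines 2-fold. Medians lie at -2.36 for neutrophil, -1.54 for pan-haematopoietic and -1.26 for mature B surface genes, and at 2.08 for ligament and tendon genes.

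In wild type ligament against stem cells, 5 of the 6 genes with a value were higher in ligament and 1 was lower, while 33.7% of all 18604 genes compared were higher and 21.8% lower. The 6 genes had a median of 5.67, and all genes one of 0.00. Cd79b was at least 241-fold higher in wild type ligament, Vpreb3 at least 190.1-fold and Ms4a1 at least 64.2-fold. These are lower limits under the processed signal, because the stem cell array was not well above background for any of the 3. With normexp background correction the limits fell to 5.74 for Cd79b, 5.07 for Vpreb3 and 3.82 for Ms4a1 on the log2 scale, against 7.91, 7.57 and 6.00.

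Cd79a was 40.4-fold higher in wild type ligament by its brighter probe (5.34, error 0.33) and at least 5.67-fold higher by the dimmer one. Vpreb1 was 8.09-fold higher (3.02, error 0.21). Ebf1 was 23.8-fold lower in wild type ligament (-4.58, error 0.26). With normexp, Cd79a came to 3.56 and Ebf1 to -3.65, and with quantile normalization Cd79a came to 4.62 and Vpreb3 to 6.79. Of the 37 other genes of the 4 lists with a value, 30 were higher in wild type ligament and 2 lower (Tcf3 -1.63 and Cd81 -1.49), with a median of 3.24. The parts of strain and tissue of origin in these differences cannot be told apart.

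In the transfected tissue against stem cells, 1 of 4 genes with a value was higher in the tissue and none lower, beside 11.1% higher and 13.0% lower of 17913 genes compared. Vpreb3 was at least 3.52-fold higher in the transfected tissue, with a signal of 144 units (error 18.7) against 18.8 units in stem cells (error 6.51), which was not well above background. With normexp background correction the Vpreb3 value was 0.23, within 2-fold. Ebf1 was 1.59-fold higher (0.67, error 0.20), past the error of its spots but within 2-fold. Vpreb1 differed by -0.11 (error 0.21), and the bound for Cd79a was -0.13, with the transfected tissue not well above background. Cd79b, Ms4a1, Igll1, Rag1 and Pax5 were not well above background on either array.

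The other genes of the 4 lists gave 22 values, 2 higher in the transfected tissue, 5 lower and a median of -0.33. Those higher were Cd93 (3.14), a receptor that endothelial cells share with B precursors, and Bach2 (1.99). Those lower were Plcg2 (-1.82), Syk (-1.42), Bcl11a (bound -1.46), Ccr7 (bound -1.09) and Tnfrsf13c (bound -1.67). On the array of the transfected tissue Vpreb3 was well above background, while Cd79b and Ms4a1 were not.

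In the transfected tissue against wild type ligament, 5 of 6 genes with a value were lower in the tissue and 1 higher, beside 35.4% lower and 20.7% higher of 18474 genes compared. Cd79b was at least 227-fold lower and Ms4a1 at least 60.5-fold. Cd79a was at least 44.2-fold lower by its brighter probe and at least 5.34-fold by the dimmer one. Vpreb3 was 54.0-fold lower (-5.75, error 0.24) and Vpreb1 8.73-fold lower (-3.13, error 0.21). Ebf1 was 38.0-fold higher in the transfected tissue (5.25, error 0.26). With normexp all these sizes were smaller: the log2 values were -6.29 for Cd79b, -4.38 for Ms4a1, -4.13 for Cd79a (brighter probe), -4.85 for Vpreb3, -2.81 for Vpreb1 and 4.39 for Ebf1. Quantile normalization gave -4.68 for Cd79a, and Ebf1 came to 5.87 in the deposited values. Of the 37 other list genes with a value, 31 were lower in the transfected tissue and 2 higher, with a median of -4.18. This comparison shares the wild type ligament array with the transgenic comparison and both cell comparisons share arrays with each other, so their values are not independent.

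The genes whose profile over the 4 arrays was closest to that of Cd79a (brighter probe) were sought among 14549 genes well above background on both ligament arrays, with dim values raised to the lowest well-above-background level of their array and each profile centred. The smallest Euclidean distances, in log2 units over 4 arrays, belonged to a probe without a gene name (0.160), Slfn2 (0.167), Kel (0.184), Pilra (0.201) and Sirpb1b (0.219). Of the 9 genes, Ms4a1 came nearest at 0.756. With 4 arrays, 2 of them at the floor for most such genes, many genes share this shape.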

How the data were processed

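RNA of 4 mouse samples was measured on 1 Agilent single-colour array each; samples were grouped by the labels. Per the file headers, the deposited scanner files hold the spot intensity as background-subtracted processed signal on a linear scale, made with Feature Extraction 10.7.1.1, whereas the submitters' processing notes name 9.5.1.1. The value table that the authors deposited is in linear intensity units too. Each of its 4 columns had a median of 49.7, how it was normalized is not given in the sources used here, and it served as an alternative. Control spots and outlier spots (155 to 281 for an array) were left out, and 0 spots were saturated. Log2 processed signal minus the 75th percentile of the array was the level. Spots of a probe were averaged, and where a gene had several probes the one brightest on average was used. Probes were named through RefSeq symbols where possible (26761 of 39429) and otherwise by the files.

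Differences were called at 2-fold where either array was well above background, with a bound against the lowest well-above-background level where the dimmer array was below it. No test was made, since each group has 1 array; this number limits the precision. The caller was tested on simulated data. The genes and the lists of marker genes were chosen with earlier results of these data known. The text names all 9 genes with every probe, up to 4 genes of each list with the largest difference between the ligaments, every B-lineage list gene past 2-fold there (some that were counted are not reported here by name) and the 5 nearest profiles to Cd79a; other genes were named after their values were seen. Alternatives were quantile normalization, normexp (offset 50; limma 3.58.1, R 4.3.3), the deposited table, centring on the probes that every array detected, the mean of all probes, only genes well above background on both arrays, no filter, and outlier spots kept. Reading Cd79a by its chromosome 7 probe was added after seeing the data. Python 3.11.15 was used. Upstream windows are RefSeq's (GRCm38.p6); probe positions are the files' (mm9).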

Additional observations from a re-analysis of the deposited data

Results flagged for a closer look

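Between samples with and without A, Vpreb3 differed in opposite directions in ligament and in cells. The cell comparison also sets ligament-like tissue against the stem cells it formed from, so A and tissue formation cannot be told apart there. In ligament, blood cell genes were lower too, with a median of -2.36 for the neutrophil and myeloid precursor list. Their part was not tested. In ligament, Vpreb3 differed by -1.64 between transgenic and wild type ligament. In cells, it was at least 1.82 higher on the log2 scale in the transfected tissue than in stem cells. The first value minus the second is -3.46 with the bound taken as the value. The difference between the contrasts was not tested, since each rests on 1 array for each group. With normexp background correction the value in cells was 0.23, within 2-fold, so the call in cells was lost. The part of the normexp offset of 50 in that loss was not tested.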

How the results depend on the processing

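No paired analysis was possible because each group has 1 array, and for the same reason no replicate could be left out. In transgenic against wild type ligament, 4 to 6 of the genes were lower under every alternative and none was higher. The 4 were with normexp (Ms4a1 -0.96), with the mean of all probes and with Cd79a read by its chromosome 7 probe (-0.23). That probe is too close to the lowest well-above-background levels to show a 2-fold fall. All 54 values of single genes in that comparison kept their sign, as did 51 of 51 for wild type ligament over stem cells, 51 of 51 for the transfected tissue over wild type ligament and 32 of 33 for the transfected tissue over stem cells. Many of these values could not change, since the filter alternatives repeat the main value for genes measured on both arrays. The mean of all probes changes only genes with several probes, and centring shifts all genes alike. Requiring both arrays well above background left 2 genes higher in wild type ligament than in stem cells, 0 higher in the transfected tissue than in stem cells and 2 lower in the transfected tissue than in wild type ligament, because fewer genes are compared. With no filter and no bound, 8 were higher in wild type ligament than in stem cells, 8 lower in the transfected tissue than in wild type ligament and 1 lower in the transfected tissue than in stem cells. With normexp, 0 were higher in the transfected tissue than in stem cells, as Vpreb3 came to 0.23. Normexp was run with an added offset of 50. The processed Vpreb3 signals were 144 units in the transfected tissue and 18.8 in stem cells. Normexp was not run without the offset, so its part in this and the other smaller normexp values was not tested.

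Over all genes, normexp gave 408 higher and 571 lower in transgenic against wild type ligament, against 1034 and 1153. For wild type ligament over stem cells, the share of calls that were higher was 60.7%, and 49.9% with quantile normalization, 49.8% with the deposited table and 77.8% with no filter. It was 36.9% in the transfected tissue against wild type ligament, and 50.3%, 50.5% and 20.9% under the same alternatives. It was 46.1% in the transfected tissue against stem cells, and 33.7% with normexp. Without a filter the median of all genes moved to -0.29 in transgenic against wild type ligament, 1.57 for wild type ligament over stem cells and -1.63 in the transfected tissue against wild type ligament. Requiring both arrays moved it to 0.27 and -0.37 in the last 2 of these, and centring on probes detected everywhere to -0.20 in the last. Signal over background limits Igll1, Rag1 and Pax5, which have no value, and the folds given as lower limits.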
